A study of Mus musculus with 24 samples.

Results

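Chromatin marks and PRRX1 sites were described at 10 genes of the Hippo pathway's transcriptional output in mouse fibroblasts: the TEAD factor genes Tead1, Tead2, Tead3 and Tead4, the coactivator genes Yap1 and Wwtr1 (which encodes TAZ), and the target genes Ctgf, Cyr61, Ankrd1 and Amotl2. They were chosen by name from 22367 protein-coding genes of the mm9 annotation. Each gene was read over its body with 10 kb on each side, and its H3K4me3 was read at its transcription start sites (TSSs). On mm9 the TEAD genes are Tead1 at chr7:119822832-120050319 (plus strand), Tead2 at chr7:52471123-52489005 (plus strand), Tead3 at chr17:28468616-28487750 (minus strand) and Tead4 at chr6:128174306-128250841 (minus strand). The coactivator genes are Yap1 at chr9:7931999-8004596 (minus strand) and Wwtr1 at chr3:57259571-57379832 (minus strand). The targets are Ctgf at chr10:24315248-24318489 (plus strand), Cyr61 at chr3:145309935-145312949 (minus strand), Ankrd1 at chr19:36186455-36194334 (minus strand) and Amotl2 at chr9:102619002-102635748 (plus strand). Ctgf and Cyr61 are named Ccn2 and Ccn1 in newer annotations.

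TEAD proteins bind DNA but have little activity of their own. YAP and TAZ are the coactivators that they recruit, and the kinase cascade of the Hippo pathway keeps YAP and TAZ out of the nucleus when it is active. In fibroblasts, stiff matrix, spreading and contraction bring YAP and TAZ into the nucleus, and genes for matricellular proteins such as Ctgf and Cyr61 are among their textbook targets. H3K4me3 marks active promoters, and H3K27ac marks active promoters and enhancers.

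The study profiled mouse embryonic fibroblasts (MEFs), cancer-associated fibroblasts from mammary tumors of MMTV-PyMT mice (MMTV-CAFs) and fibroblasts from dorsal skin wounds, to ask how the homeobox factor Prrx1 shapes their chromatin. Of its 24 samples, 17 gave a list of ChIP-seq peaks: 7 for H3K27ac, 7 for H3K4me3 and 3 for PRRX1, and 7 inputs were not used here. MEFs came from embryos of days E10 to E13 with the strain label C57BL/6, MMTV-CAFs from FVB/NJ mice, and wound-healing fibroblasts (wound fibroblasts below) from C57BL/6 mice at day 10 after wounding, and every line was immortalized with the E6 and E7 genes of human papillomavirus. In each type, SG cells carried a CRISPR/Cas9 deletion made with an sgRNA against Prrx1 and WT cells were the control, which is described as cells with a nonspecific sgRNA (SgNS). MEFs also had a KI line, read here as the one from Prrx1 mutant embryos (129S-Prrx1tm1Jfm/Mmmh), a line that carries lacZ in the homeodomain of Prrx1 and was backcrossed to C57BL6. Whether the WT MEF lists came from SgNS cells or from wild-type embryos is not given in the sources used here, nor is whether a line is 1 clone. Values are given in the fixed order MEF WT, KI and SG, then MMTV-CAF WT and SG, then wound WT and SG wherever all 7 stand in a row. There was 1 list per group, so no value has a replicate error, no test was run, and every difference below is a difference between lists.

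The lists held 29325 to 61603 H3K27ac summits, 13125 to 29166 H3K4me3 regions and 3048 to 8000 PRRX1 summits, and the read depth behind them is unknown. The MEF KI lists were the smallest of both marks, and the median H3K27ac score there was 11.9 against 15.2 to 21.2 in the other lists. Of 12 fibroblast markers, 7 to 11 had an H3K27ac summit within 2 kb of a TSS in each list, and the collagen genes Col1a1, Col1a2 and Col3a1 had one in all 7. Of 7 epithelial markers 0 or 1 had one, of 4 endothelial markers 0 or 1, and of 4 leukocyte markers 0 to 2. Epcam, Cdh1, Pecam1 and Ptprc were unmarked throughout. Prrx1 itself was marked in every list, with H3K4me3 regions of 4558 to 15484 bp, so the lists alone do not check the deletion. In bulk cells a weaker mark in every cell and a mark in fewer cells cannot be told apart.

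Most promoters of the members hold the letters of a TEAD site. These letters, GGAATG, stood on either strand in 7 of the 9 member promoters searched (250 bases before to 50 after the first TSS), against 13.4% of all 22367 protein-coding promoters. These genes were picked as TEAD-YAP genes by earlier work, so a TEAD motif at their promoters is not an independent observation. Tead1 held 3 copies, where 0.0805% of all promoters hold 3 or more. Ankrd1 held 2 copies, 210 and 123 bases upstream, as 1.18% of promoters do with 2 or more. Tead3, Yap1, Wwtr1, Cyr61 and Amotl2 held 1 each, and Tead2 and Tead4 none. None of the 9 held the AP-1 letters TGANTCA, found in 6.79% of all promoters, or the homeodomain letters TAATTA, found in 4.79%. The 250 bases upstream of the TSS are printed 5′ to 3′ on the gene's strand from the mm9 genome (NCBIM37) for 3 of the targets and both coactivators, since the TEAD letters there can be read beside the marks below, and capitals mark GGAATG or its reverse complement.
Cyr61 promoter, chr3:145312950-145313199, minus strand: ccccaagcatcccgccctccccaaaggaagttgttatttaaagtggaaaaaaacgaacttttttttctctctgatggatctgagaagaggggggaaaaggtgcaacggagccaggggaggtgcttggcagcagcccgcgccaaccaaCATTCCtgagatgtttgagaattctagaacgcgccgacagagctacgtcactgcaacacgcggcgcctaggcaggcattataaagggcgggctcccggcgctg
Ankrd1 promoter, chr19:36194335-36194584, minus strand: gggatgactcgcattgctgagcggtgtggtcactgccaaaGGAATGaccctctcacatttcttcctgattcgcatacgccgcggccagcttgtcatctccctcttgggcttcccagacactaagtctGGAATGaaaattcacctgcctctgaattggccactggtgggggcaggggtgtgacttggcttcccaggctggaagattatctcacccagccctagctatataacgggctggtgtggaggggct
Amotl2 promoter, chr9:102618752-102619001, plus strand: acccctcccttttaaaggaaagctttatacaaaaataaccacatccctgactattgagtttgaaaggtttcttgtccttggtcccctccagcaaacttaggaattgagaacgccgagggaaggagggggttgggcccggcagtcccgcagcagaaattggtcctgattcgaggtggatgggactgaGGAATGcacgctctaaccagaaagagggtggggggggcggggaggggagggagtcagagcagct
Yap1 promoter, chr9:8004597-8004846, minus strand: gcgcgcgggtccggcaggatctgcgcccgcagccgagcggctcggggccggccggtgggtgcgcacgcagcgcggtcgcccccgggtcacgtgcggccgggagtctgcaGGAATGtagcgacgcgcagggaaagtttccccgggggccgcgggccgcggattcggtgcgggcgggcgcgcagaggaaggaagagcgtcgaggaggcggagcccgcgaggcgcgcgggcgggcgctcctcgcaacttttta
Wwtr1 promoter, chr3:57379833-57380082, minus strand: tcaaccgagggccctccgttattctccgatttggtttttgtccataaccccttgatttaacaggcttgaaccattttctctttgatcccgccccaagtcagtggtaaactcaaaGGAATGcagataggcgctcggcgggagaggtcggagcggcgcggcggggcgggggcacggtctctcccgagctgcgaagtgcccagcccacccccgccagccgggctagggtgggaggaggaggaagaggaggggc

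H3K4me3 lay over a TSS of all 10 members in 6 of the 7 lists and of 7 in MEF KI. Over the members with a region, the median WT width was 3732 bp in MEFs, 5777 bp in MMTV-CAFs and 3899 bp in wound fibroblasts, beside 2249, 3043 and 2079 bp over all genes. In MEFs, regions over 4 kb were found at 4 of 10 members in WT (4.97% of all genes), 1 in KI (1.48%) and 6 in SG (3.56%). In MMTV-CAFs they were found at 8 members in WT (15.0%) and 6 in SG (12.7%), and in wound fibroblasts at 5 in WT (4.78%) and 6 in SG (8.50%). The share of members with such a broad region lay above the share of all genes in each list, although in MEF KI it rests on Amotl2 alone. About as many genes had no region at all as had one, and among genes with a region the share over 4 kb in the WT lists was 9.46% (MEF), 28.9% (MMTV-CAF) and 8.85% (wound).

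Among the TEAD genes, Tead1 had the broadest region in 5 of the 7 lists and Tead2 the narrowest in every list. The Tead1 region was 4344, 3780 and 4233 bp wide in the MEF lists, 5991 and 5003 bp in the MMTV-CAF lists, and 4177 and 4578 bp in the wound lists. At Tead4 the 7 widths ran from 2377 bp in MEF KI to 4373 bp in MEF SG, where Tead4 was the widest of the TEAD genes. The Tead2 region measured 1560, 802, 1251, 1646, 2001, 1420 and 2015 bp in the same order of lists, between the 6.86 and 37.1 percentiles of all marked genes. Tead2 was narrow, but its fold enrichment was nearer to that of other genes: in the WT lists it was 5.23 (MEF), 10.2 (MMTV-CAF) and 6.15 (wound), beside medians over all genes of 5.62, 9.85 and 7.71. Tead3 measured 2205 to 3203 bp in the MEF lists, 3620 and 3646 bp in the wound lists, and 3814 bp in MMTV-CAF SG. In MMTV-CAF WT alone it was 11406 bp, since 1 region there ran unbroken over a stretch that held 3 separate regions in MMTV-CAF SG.

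The coactivator genes were both marked in every list. Wwtr1 was the wider of the pair throughout, at 5619, 3452 and 5239 bp in the MEF lists, 5563 and 6366 bp in the MMTV-CAF lists, and 5183 and 5891 bp in the wound lists. Yap1 measured 3783, 2864, 3795, 5062, 4484, 3272 and 4604 bp in the same order. At Yap1 the MMTV-CAF WT list held 14 separate H3K4me3 regions in the gene window, where the other lists held 1 or 2, and its fold at the TSS was 7.38 there, below the 9.85 median, against 14.5 in MMTV-CAF SG. The −log10 p of that region was the highest of its list, at 163, against 60.4 in MMTV-CAF SG. The stretch of chromosome 9 that this belongs to is described below.

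The 4 target genes differed widely in width. Amotl2, an angiomotin-family gene whose protein binds YAP, had the 99.3 to 99.8 percentile of width in every list, from 6504 bp in MEF KI through 7113 bp in wound WT and 7643 bp in MEF WT to 14270 bp in MMTV-CAF SG. Cyr61, which encodes a secreted integrin ligand, had regions of 8005 to 9698 bp in the 6 lists other than MEF KI, at the 98.4 percentile or above although the gene itself is 3015 bp long. Ankrd1, a nuclear ankyrin-repeat protein gene of muscle and stretched cells, lay between 3680 bp in MEF WT and 6418 bp in MMTV-CAF WT. Ctgf, whose product is a matricellular growth factor modulator, had the narrowest regions of the targets, from 2341 bp in MEF SG to 4365 bp in MMTV-CAF WT.

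Ctgf, Cyr61 and Ankrd1 were the members with no region over the TSS in MEF KI. Each nevertheless had a region close by. At Ctgf a region of 1776 bp began 263 bp downstream, at Cyr61 one of 3698 bp began 230 bp upstream and a separate one lay downstream, and at Ankrd1 one of 3229 bp began 26 bp downstream. Counting a region within 500 bp of a TSS, all 10 members were marked in MEF KI, so these are gaps at the TSS in the smallest H3K4me3 list rather than an absence of the mark from the genes.

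**Figure D1:**
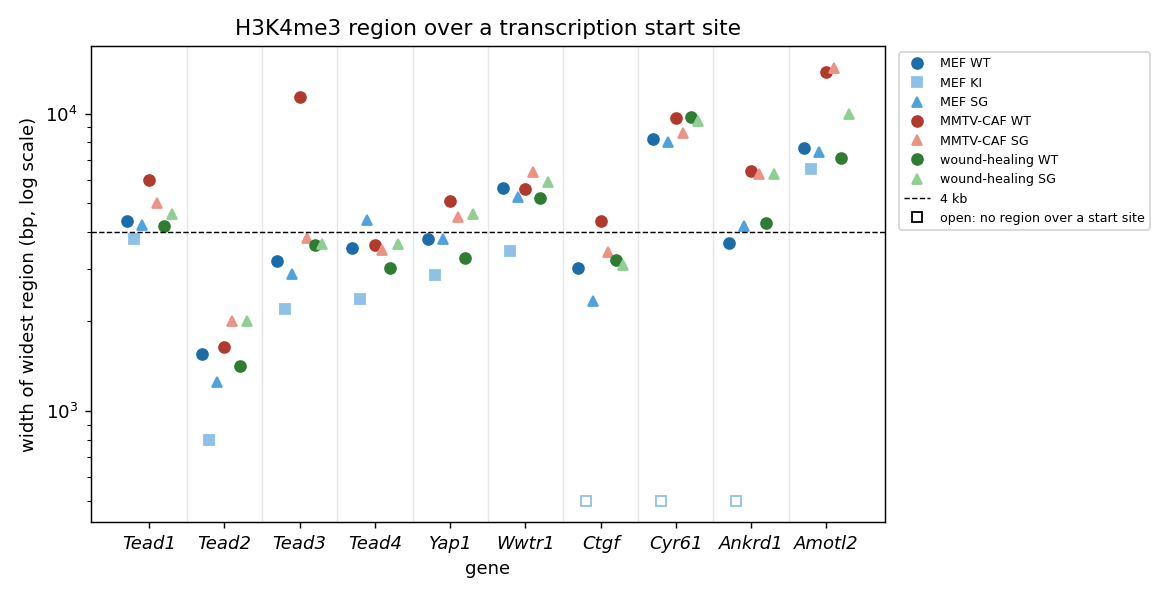
Width in bp (log axis) of the widest H3K4me3 region over a TSS of each member gene in the 7 lists; colours give the fibroblast type, marker shapes the genotype, the dashed line 4 kb, and open squares at the bottom the genes without a region over a TSS in MEF KI. Amotl2 and Cyr61 sit highest, Tead2 lowest, and Tead3 stands apart at 11406 bp in MMTV-CAF WT.

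H3K27ac was read as the sum of the summit scores (−log10 p, the deposited measure of each summit's enrichment) in the gene window. Compared per kb of window, the targets Amotl2, Cyr61 and Ankrd1 and the TEAD gene Tead3 had the highest medians over the 7 lists, though not the highest value in each list. Amotl2 ran from 5.41 per kb in MEF KI to 11.1 in MMTV-CAF SG, at the 94.9 to 99.6 percentile of all genes with a summit. Cyr61 ran from 5.39 to 8.68 per kb, Ankrd1 from 3.75 to 9.05, and Tead3 from 1.14 to 10.4. The Tead3 window also holds the TSSs of Rpl10a, a ribosomal protein gene, and Tulp1, so its signal is not its own alone. Wwtr1 and Ctgf were intermediate, with medians over the 7 lists of 3.38 and 3.43 per kb. Tead1, Tead4 and Tead2 were low, with medians of 1.56, 1.29 and 1.08 per kb, the long Tead1 window of 247 kb spreading many summits thinly. Yap1 had a median of 1.57 per kb and a value of 14.6 in MMTV-CAF WT alone, which placed it at the 99.7 percentile there and between the 27.9 and 71.6 percentiles elsewhere.

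The number of summits differed as much between genes. Tead2 had 1 summit in each list, near its TSS, with scores of 40.9, 8.33 and 52.7 in the MEF lists, 30.6 and 48.3 in the MMTV-CAF lists, and 22.3 and 44.5 in the wound lists. Tead1 had 23, 8, 28, 27, 19, 12 and 23 summits in that order of lists, and Wwtr1 18, 7, 19, 21, 23, 11 and 14. Summits of the 7 lists within 500 bp of each other were joined into 200 elements over the 10 windows. Of these, 13 were present in all 7 lists: 5 at Tead1, 3 at Wwtr1, 2 at Amotl2, and 1 each at Tead2, Tead3 and Tead4. The remaining members, Yap1, Ctgf, Cyr61 and Ankrd1, had no element common to all lists. By contrast 92 elements were in 1 list, of which 42 were at Yap1.

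**Figure D2:**
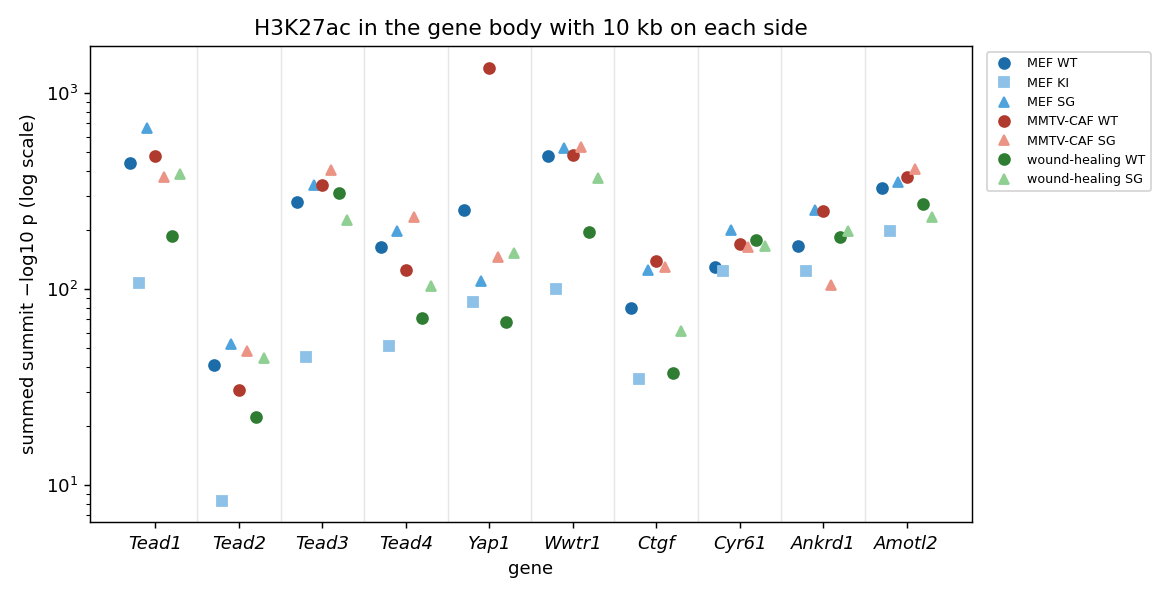
Summed H3K27ac summit score (−log10 p, log axis) in each member's window in the 7 lists, with colours and shapes as for the H3K4me3 plot. MEF KI is lowest for most genes, and Yap1 in MMTV-CAF WT (1348) is the highest value of any member.

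Neighbouring summits were then stitched into clusters and the clusters ranked by summed score, as is done to call super-enhancers. Above the point where the ranked curve steepens lay a cluster at 7, 3 and 5 members in the MEF lists, where 10.4%, 4.06% and 11.4% of all protein-coding genes had one in their window. It was 6 and 4 members in the MMTV-CAF lists (10.8% and 10.5% of all genes) and 5 and 5 in the wound lists (7.39% and 11.9%). Amotl2 was in this class in all 7 lists, from rank 425 of 18052 clusters in wound SG to rank 25 of 19061 in MMTV-CAF SG, where its cluster of 70.2 kb ran past the gene window. Tead1 and Tead3 were in it in every list but MEF KI. Ctgf and Tead2 were in it in none. In MMTV-CAF WT the Yap1 cluster was rank 3 of 18506, beside rank 985 of 18313 in MEF WT and rank 4443 of 13901 in wound WT.

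The comparison of Prrx1-deleted or mutant lists with WT asks whether H3K27ac at the members depends on Prrx1. Values are log2 ratios of the summed scores (plus 5), less the median over all genes, and a call is a centred ratio past 2-fold. That median was −1.62 for MEF KI, and 0.48, 0.25 and 0.59 for the SG lists of MEFs, MMTV-CAFs and wound fibroblasts, so all ratios are relative to a whole-list shift that was large in MEF KI. In MEF KI, 0 of 10 members were called lower (14.0% of all genes) and 2 higher (11.2%). In MEF SG, 1 of them was lower (6.36%) and 0 higher (6.58%). In MMTV-CAF SG, 2 were lower (6.46%) and 0 higher (11.0%). In wound SG, 1 was lower (4.55%) and 0 higher (10.1%). Counts of 0 to 2 of 10 are too small to place above or below these shares. The 2 lower in MMTV-CAF SG were Yap1 and Ankrd1, described below. The median centred ratios of the members, 0.07, −0.18, −0.21 and −0.02, are near the 0 of all genes.

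The calls in MEF KI were at Cyr61 and Ankrd1, and both rest on the centring. The Cyr61 sum was 129 in MEF WT and 124 in MEF KI, a centred log2 ratio of 1.56 but an uncentred one of −0.055. For Ankrd1 the sums were 165 and 124, with ratios of 1.22 and −0.40. Both genes thus kept a sum near that of WT in a list whose sums were lower for most genes. Without centring, 7 members would be called lower in MEF KI (78.8% of all genes) and 0 higher (2.51%).

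Tead3 was the gene called lower in wound SG, with 13 summits summing to 309 in WT and 4 summing to 224 in SG, a centred log2 ratio of −1.04, just past the threshold. The call was lost without centring (−0.45), with 50 kb on each side (−0.83) and with lists of equal size (−0.95). Within 1 kb of its TSS the sum was 123 in WT and 64.4 in SG, while the summit beyond its 3′ end stood at 56.8 in WT and 107 in SG. In MEF SG its ratio was −0.20 and in MMTV-CAF SG −0.00. Amotl2 in wound SG was at −0.81, short of the threshold, with sums of 271 in WT and 232 in SG.

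Ankrd1 was called lower in MMTV-CAF SG, with sums of 249 in WT and 105 in SG and a centred log2 ratio of −1.46. The call depends on the edge of the window. A strong summit upstream of Ankrd1 lay at −9290 bp from the TSS in MMTV-CAF WT (score 74.5) and at −10084 bp in MMTV-CAF SG (score 81.1), 84 bp outside the window. With 11 kb on each side, a window chosen after seeing this, the ratio was −0.67. The same summit lay outside the window in MEF SG, at −10173 bp (score 113), and inside it in MEF WT, at −9345 bp (86.7), and with 11 kb the MEF SG ratio was 0.65 in place of 0.12. The window also differed next to the promoter. MMTV-CAF WT had a summit at −703 bp from the TSS with a score of 60.5, and MMTV-CAF SG had none within 1 kb, while the summit inside the gene, at 1892 and 1871 bp from the TSS, stood at 61.1 and 59.2. Wound fibroblasts showed the same layout, with 29.9 within 1 kb of the TSS in WT and no summit in SG, and 54.2 and 60.5 at the site inside the gene. Cyr61 likewise had a summit within 1 kb of its TSS in 5 lists, at 53.4, 18.0 and 88.4 in the MEF lists, 73.1 in MMTV-CAF WT and 31.0 in wound WT. MMTV-CAF SG and wound SG had none there. In MMTV-CAF SG the strong summit at −3234 bp scored 152, against 86.8 at −3137 bp in WT. In wound SG a summit of 97.9 stood at −2253 bp and one of 46.6 at 1219 bp, just outside the 1 kb. The Cyr61 sums over the window were close, at 170 and 164 in MMTV-CAF WT and SG, so the summits at this gene were placed differently with little difference in their sum. Whether this reflects the mark or the placing of summits within a broad peak was not tested.

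**Figure D3:**
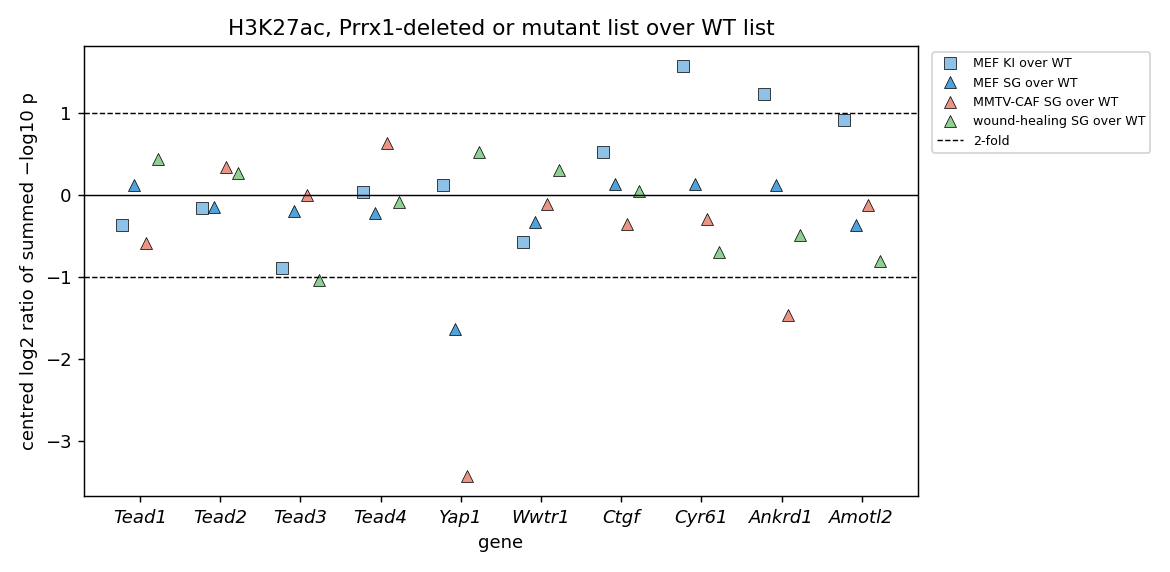
Centred log2 ratio of summed H3K27ac score, deleted or mutant list over WT list, for each member gene, with 1 point per comparison; the solid line is the median of all genes and the dashed lines are 2-fold. Yap1 in MMTV-CAF SG (−3.42) stands apart from the other points.

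Yap1 was the gene with the lowest ratio in both MEF SG and MMTV-CAF SG. Its summed score was 253, 85.8 and 110 in the MEF lists, 1348 and 145 in the MMTV-CAF lists, and 68.1 and 153 in the wound lists. The MMTV-CAF WT value thus stood far above the other 6. In MEF SG the centred log2 ratio was −1.64, and it came from sites away from the promoter: the window held 13 summits in WT and 3 in SG, while the sum within 1 kb of the TSS was 79.7 in WT and 97.0 in SG. In wound SG the ratio was 0.52, in the opposite direction, and in MEF KI it was 0.11.

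In MMTV-CAF WT the Yap1 window held 40 H3K27ac summits against 6 in MMTV-CAF SG, a centred log2 ratio of −3.42. Its TSS summit, with a score of 274, was the highest of all 53873 summits of that list. Yap1 was not alone in this. A contiguous stretch of 1.6 Mb on chromosome 9 (chr9:6900001-8500000, the run of 100-kb bins around the Yap1 TSS with at least 3 PRRX1 summits each in MMTV-CAF WT) held 136 H3K27ac summits in MMTV-CAF WT and 23 in MMTV-CAF SG, and 13 to 34 in the other 5 lists. It held 51 H3K4me3 regions in MMTV-CAF WT, 14 in MMTV-CAF SG and 10 to 14 elsewhere. PRRX1 summits of MMTV-CAF WT set its edges, so their number there, 142 or 1.77% of that list, describes the choice, and MEF WT and wound WT had 1 and 5. The excess of the histone marks also ran below these edges. Between 6 and 6.5 Mb, MMTV-CAF WT held 42 H3K27ac summits and 9 H3K4me3 regions, against 2 and 0 in MMTV-CAF SG. Of the 21 protein-coding genes of the stretch, 14 besides Yap1 had a summit in MMTV-CAF WT or SG. All 14 were called lower in MMTV-CAF SG (6.46% of all genes), with centred log2 ratios from −6.19 to −1.58 and a median of −2.18. Neighbouring windows overlap and can share summits: Birc2 and C330006D17Rik had the same SG sum of 150. The stretch was chosen where the WT line had many PRRX1 summits. The 14 are thus neither separate observations nor independent of that choice. Ratios of genes with no SG summit, such as the lowest one, depend on the 5 added to each sum. The 14 genes include the apoptosis inhibitor genes Birc2 (−1.64) and Birc3 (−1.60) and the collagenase gene Mmp13 (−3.59, with no SG summit).

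The excess of both histone marks thus covered a block of neighbouring genes, and it was seen in 1 of the 7 cell lines. DNA copy number was not measured here, and its part in these values was not tested. Nor can the difference between MMTV-CAF WT and SG at Yap1 be told apart from a difference between the block as a whole in those lines. The counts are therefore also given without the gene, a choice made after seeing these values. Without Yap1, MEF SG had 0 of 9 members lower in H3K27ac and MMTV-CAF SG had 1 of 9.

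**Figure D4:**
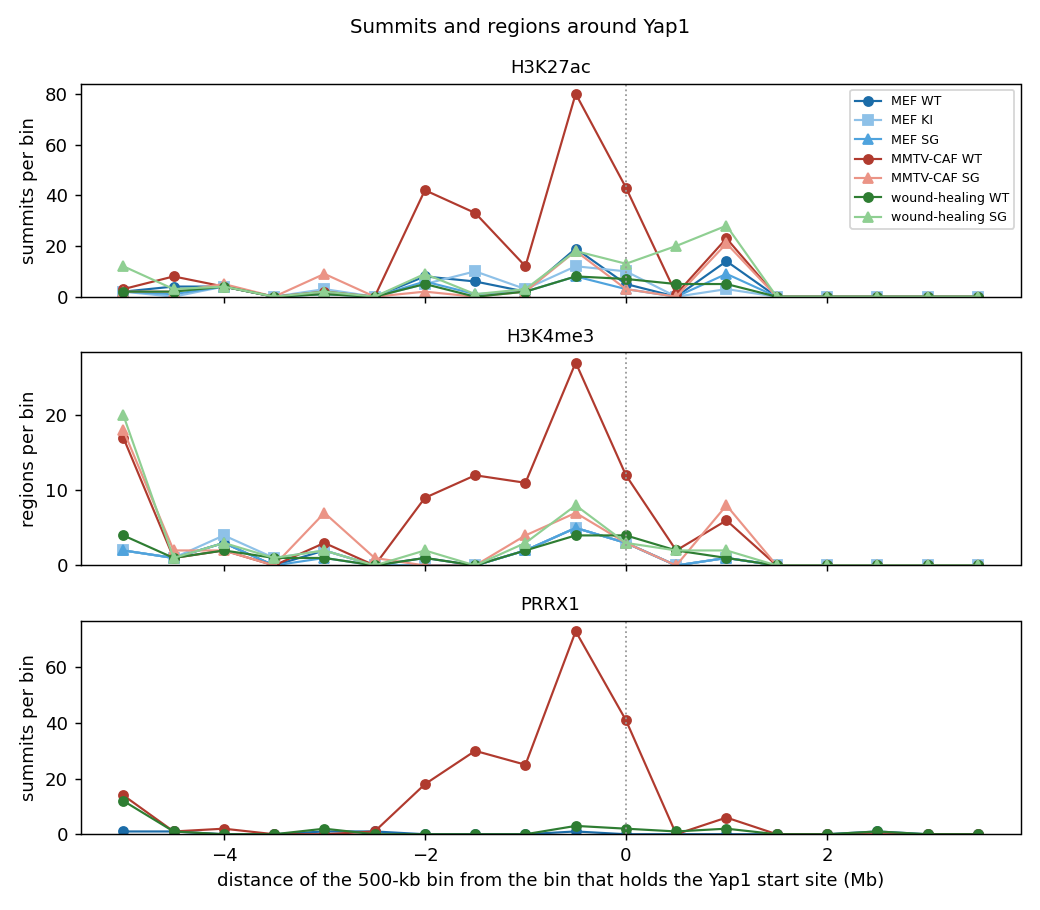
H3K27ac summits, H3K4me3 regions and PRRX1 summits per 500-kb bin on chromosome 9, by distance in Mb from the bin that holds the Yap1 TSS (dotted line), with 1 line per list. MMTV-CAF WT lies above the other lists in the 5 bins from −2 to 0 Mb in all 3 panels, to 80 H3K27ac summits, 27 regions and 73 PRRX1 summits.

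H3K4me3 widths, compared in the same way with calls past 1.5-fold, gave 0 or 1 call at the members, although joining regions within 1 kb of each other gave 4 lower in MMTV-CAF SG (6.46% of all genes). The joined count was not repeated without Yap1, whose window held 14 regions in MMTV-CAF WT and 1 in SG. With regions left unjoined, 1 of the 7 measured members in MEF KI was lower (10.6% of all genes) and 0 were higher (1.56%). In MEF SG, 0 of 10 were lower (3.65%) and 0 higher (0.890%). In MMTV-CAF SG, 1 was lower (4.73%) and 0 were higher (5.52%). In wound SG, 0 were lower (3.24%) and 0 higher (5.93%). The medians over all genes were −0.32, −0.09, −0.05 and 0.18. The call in MEF KI was Tead2, at 802 bp against 1560 bp, a centred log2 ratio of −0.64. The call in MMTV-CAF SG was Tead3, at −1.53, which followed from the break of its region into 3 pieces: over the whole window the covered length was 15992 bp in WT and 11620 bp in SG. For Yap1, in the block described above, the ratio of the width over its TSS was −0.12 in MMTV-CAF SG.

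An element of a WT list was counted as kept where the deleted or mutant list had a summit in it. The share over all summits is of single WT summits with a summit of the other list within 500 bp. Elements join summits of all 7 lists and can run past 500 bp, so the paired shares below are unlike measures. In MEF SG, 57 of 82 WT elements were kept (69.5%), where 68.2% of all WT summits had an SG summit within 500 bp. In MEF KI 31 of 82 were kept (37.8%, where the share of all summits was 44.3%). In wound SG the count was 36 of 66 (54.5%, against 67.7%), and in MMTV-CAF SG it was 49 of 115 (42.6%, against 63.9%). Without Yap1 the MMTV-CAF count was 45 of 75. No element was present in all 3 WT lists and absent from all 4 deleted or mutant lists.

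PRRX1 was profiled in WT cells. Its summits lay in the windows of 2 of 10 members in MEFs (7.03% of all genes), 7 in MMTV-CAFs (22.1%) and 5 in wound fibroblasts (16.8%). In the gene bodies alone, the MMTV-CAF count was 4, and the 22.1% does not apply to it because that share is for windows with 10 kb on each side. Long genes have wider windows than most, and per Mb of window the members held 2.62, 51.0 and 10.5 summits, against 1.33, 5.14 and 3.61 over all genes. Of the 39 summits in MMTV-CAF WT, 29 were at Yap1, in the block described above, so the other 9 members held 10. By gene, MEF WT had 1 summit each at Yap1 and Wwtr1. In MMTV-CAF WT, beside Yap1, there were 4 at Tead1, 2 at Wwtr1 and 1 each at Tead3, Tead4, Cyr61 and Ankrd1. In wound WT there were 2 each at Yap1, Wwtr1 and Cyr61 and 1 each at Tead4 and Ankrd1. Tead2, Ctgf and Amotl2 had none in any list, although the H3K4me3 region of Amotl2 was at or above the 99.3 percentile of width in every list.

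A site inside Wwtr1 was the strongest PRRX1 summit of the members and the one common to the 3 fibroblast types. It lies in an intron about 88.2 kb downstream of the TSS, on chromosome 3. The summit was at position 57291540 in MEFs (score 19.4, rank 292 of 3048), at 57291527 in MMTV-CAFs (score 46.2, rank 52 of 8000) and at 57291543 in wound fibroblasts (score 15.0, rank 305 of 5698, tied with other summits), so the 3 lay within 16 bp. It carried H3K27ac, with element scores of 32.7 and 28.7 in MEF WT and SG and no summit in MEF KI. In MMTV-CAFs the scores were 29.97 in WT and 9.88 in SG, and in wound fibroblasts 15.3 and 10.8. These scores are not centred, and 44.3% of all WT summits in MEFs lay within 500 bp of one in the KI list. Outside Yap1, among elements at a PRRX1 site of the same type, the H3K27ac score in SG was lower at 3 and higher at 3 in MMTV-CAFs, lower at 3 and higher at 4 in wound fibroblasts, and lower at the 1 element in MEFs. The same wound PRRX1 summit at Cyr61 lay within 500 bp of a lower element (38.0 in WT, no summit in SG) and of a higher one (no summit in WT, 97.9 in SG), so it counts in both directions. The element at the Tead4 intron site described next scored 18.4 in MMTV-CAF WT and 35.7 in SG, for example, and one downstream of Ankrd1 15.9 in MMTV-CAF WT with no summit in SG. In MMTV-CAF WT the site also lay inside an H3K4me3 region.

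**Figure D5:**
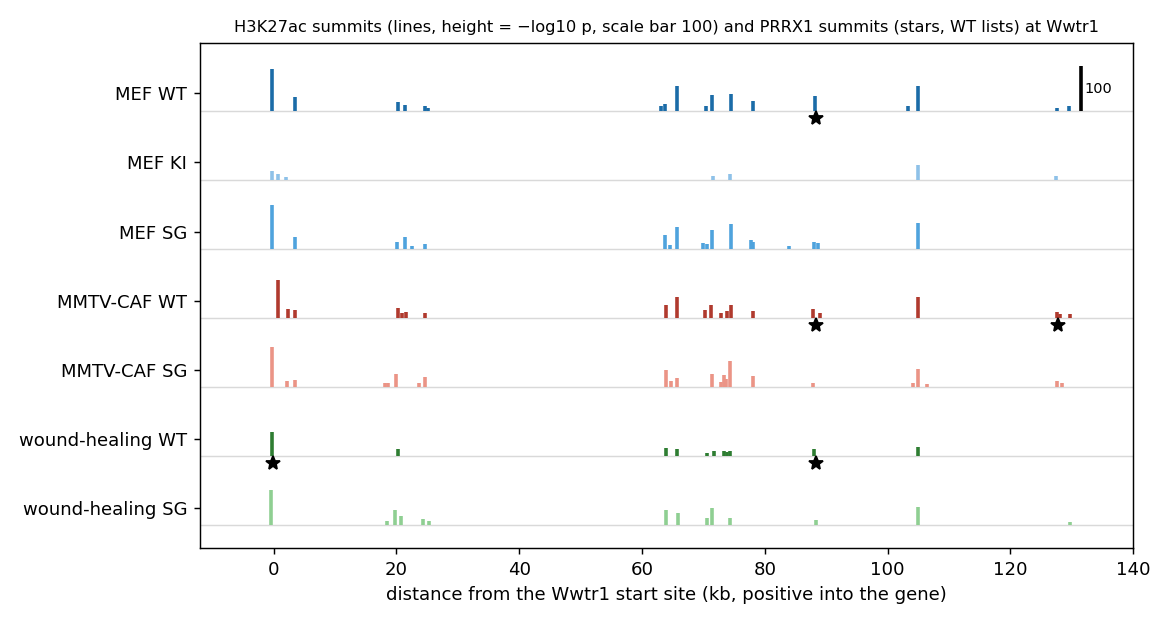
H3K27ac summits (vertical lines, height is the score as −log10 p, with a scale bar of 100) and PRRX1 summits (stars, drawn under the WT lists they come from) at Wwtr1, by distance in kb from its TSS. The star at about 88.2 kb recurs in the 3 WT lists, with an H3K27ac summit beside it in every list but MEF KI.

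Further sites recurred in a pair of types. At Tead4, intron summits of MMTV-CAF WT (score 8.53) and wound WT (9.36) lay 121 bp apart. Downstream of Ankrd1, summits of the same types (10.8 and 7.30) lay 55 bp apart. At Yap1 the wound summits at 7985862 and 8003162 lay 29 and 27 bp from MMTV-CAF summits, and the MEF summit at 7985262 lay 59 bp from one, so 3 of the 29 MMTV-CAF sites were also listed in a type without the block. Wound WT also had a summit at −155 bp from the Wwtr1 TSS, inside the promoter printed above, with a score of 4.50 near the list's minimum of 3.05. At Cyr61 the MMTV-CAF summit lay at −523 bp from the TSS and the wound summits at −1833 and 431 bp, with scores of 5.76, 5.39 and 5.39. Tead1 had 4 summits, all in introns and in MMTV-CAF WT, with scores of 5.69 to 15.5.

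The sequences of 5 of these sites, 60 bases on each side of the summit, are given because they show which motif letters stand at recurring PRRX1 sites, with capitals for the homeodomain, AP-1 and TEAD letters on either strand. The Tead1 site, with a score of 8.53, was seen in MMTV-CAF WT alone and is shown because it holds the AP-1 and the homeodomain letters together.
Wwtr1 intron, chr3:57291467-57291587, plus strand: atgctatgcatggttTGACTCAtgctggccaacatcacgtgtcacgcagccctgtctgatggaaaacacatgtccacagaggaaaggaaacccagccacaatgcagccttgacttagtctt
Tead4 intron, chr6:128232294-128232414, plus strand: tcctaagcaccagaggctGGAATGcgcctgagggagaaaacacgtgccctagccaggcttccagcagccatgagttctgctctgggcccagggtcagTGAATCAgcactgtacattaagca
Ankrd1 downstream, chr19:36185674-36185794, plus strand: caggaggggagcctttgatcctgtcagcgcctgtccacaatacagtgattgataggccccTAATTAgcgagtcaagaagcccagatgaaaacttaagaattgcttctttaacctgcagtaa
Yap1 intron, chr9:7985202-7985322, plus strand: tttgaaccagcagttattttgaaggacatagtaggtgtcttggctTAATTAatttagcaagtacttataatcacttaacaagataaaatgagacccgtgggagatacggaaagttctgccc
Tead1 intron, chr7:119896995-119897115, plus strand: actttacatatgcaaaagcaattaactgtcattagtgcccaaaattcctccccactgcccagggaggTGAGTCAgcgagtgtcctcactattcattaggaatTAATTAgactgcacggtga

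The Wwtr1 site held the AP-1 letters and no TAATTA within 100 bp of any of its 3 summits, although TAATTA stood within 100 bp of 69.1% of all PRRX1 summits in MEFs, 35.5% in MMTV-CAFs and 41.9% in wound fibroblasts. Of the other printed sequences, that of Tead4 held AP-1 and TEAD letters, those of Ankrd1 and Yap1 TAATTA, and that of Tead1 both AP-1 letters and TAATTA. The letters near a site can differ with the summit taken: the wound summit at Tead4 had AP-1 letters and TAATTA but no TEAD letters within 100 bp, and the MMTV-CAF summit next to the printed Yap1 one had TEAD letters beside TAATTA. In MMTV-CAF WT, TGANTCA was found at 9 of the 39 member summits (23.1%), against 18.25% of all summits of that list, and outside Yap1 at 7 of 10. TAATTA was found at 12 of the 39 and at 4 of these 10. In wound WT the AP-1 letters stood at 3 of the 8 member summits, against 13.0%, and at 3 of 6 outside Yap1. GGAATG stood at 6 of the 39 in MMTV-CAF WT (15.2% of all summits) and 1 of the 8 in wound WT (11.1%). At the members' H3K27ac summits GGAATG stood within 100 bp of 7.50% to 16.7%, beside 9.86% to 11.1% over all summits of the same lists. A match describes letters in the window and does not show that a factor binds them.

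The other genes of the pathway were counted by the same measures. Of 25 upstream regulators of the Hippo pathway, 23 or 24 had H3K27ac summits to compare. In MEF KI, 3 were called lower (14.0% of all genes) and 2 higher (11.2%), and in MEF SG 1 (6.36%) and 0 (6.58%). The counts were 0 (6.46%) and 1 (11.0%) for MMTV-CAFs and 2 (4.55%) and 2 (10.1%) for wound fibroblasts. These small counts are near the shares of all genes. The lowest were Stk4 (−1.49), which encodes a kinase at the head of the cascade, and the protocadherin gene Fat1 (−1.29) in MEF KI, Fat1 (−1.31) and Fat4 (−0.98) in MEF SG, Dchs1 and Wwc2 (both −0.82) in MMTV-CAF SG, and Wwc2 (−1.22) and the TEAD cofactor gene Vgll3 (−1.20) in wound SG. The highest were the scaffold gene Sav1 (1.22) and Ajuba (1.21) in MEF KI, Lats1 (0.51) and Wwc1 (0.30) in MEF SG, Fat4 (1.26) and Wtip (0.68) in MMTV-CAF SG, and Nf2 (1.29) and Vgll2 (1.05, with no WT summit) in wound SG. Fat4, a giant protocadherin, had 6 summits in MEF WT and 5 in SG, against 3 in MMTV-CAF WT and 8 in SG.

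Of 18 other YAP/TAZ target genes, 17 were measured in each comparison, and Lats2 and Ptpn14 are in both this list and that of the regulators. In MEF KI, 2 were lower (14.0% of all genes) and 3 higher (11.2%), and in MEF SG 1 (6.36%) and 0 (6.58%). For MMTV-CAFs the counts were 1 (6.46%) and 2 (11.0%), and for wound fibroblasts 0 (4.55%) and 1 (10.1%), again near the shares of all genes. The lowest were Nt5e (−1.18) and Foxf2 (−1.04), both with no KI summit, in MEF KI, Nt5e (−3.28) and Rbms3 (−0.97) in MEF SG, Crim1 (−1.04) and Rbms3 (−0.95) in MMTV-CAF SG, and Nuak2 (−0.83) and Axl (−0.80) in wound SG. The highest were Ccdc80 (2.21) and F3 (1.27) in MEF KI, Fjx1 (0.66) and F3 (0.28) in MEF SG, Foxf2 (2.11) and Nt5e (1.21) in MMTV-CAF SG, and Nt5e (1.74) and Ptpn14 (0.48) in wound SG. Nt5e, which encodes the ectonucleotidase CD73, had 2 summits in MEF WT and none in either deleted or mutant MEF list, 8 in MMTV-CAF WT and 17 in SG, and 0 in wound WT and 1 in SG, so its ratios in MEFs and wound fibroblasts depend on the added 5, as do those of Foxf2 in MEF KI and Vgll2 in wound SG. PRRX1 summits were found at 3, 13 and 11 of the 25 regulators and at 4, 13 and 7 of the 18 targets in the WT lists of MEFs, MMTV-CAFs and wound fibroblasts, where 7.03%, 22.1% and 16.8% of all genes had one. Per Mb of window the regulators held 1.21, 6.88 and 8.09 summits and the targets 3.60, 10.4 and 5.03, beside 1.33, 5.14 and 3.61 over all genes.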

How the data were processed

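H3K27ac, H3K4me3 and PRRX1 ChIP-seq were read from 17 deposited peak lists, 1 per group. Per the labels, the authors used Trimmomatic, Bowtie, MACS2 and deepTools with the mm9 build, and the methods also name Picard for duplicate removal. The H3K27ac and PRRX1 lists as deposited give each summit 1 base wide with a −log10 p score from the peak caller. The H3K4me3 lists as deposited give broad regions with a whole-number score, a fold enrichment ratio over input and −log10 p and q values. How the duplicate PRRX1 experiments were combined is not given in the sources used here, and since no read counts were used, the depth is unknown and no counting interval can be given.

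Genes were taken from the GENCODE annotation of NCBIM37 (mm9), by symbol and protein-coding type, which for Tead1 leaves 1 of 2 entries. Ajuba and Spi1 were matched under their older symbols Jub and Sfpi1. Windows were the gene body with 10 kb on each side. H3K27ac was summed over summits and compared as log2 of the sum plus 5, H3K4me3 as the log2 width of the widest region over a TSS, each less the median over all protein-coding genes with a value in either list (H3K27ac) or in both lists (H3K4me3). Calls were 2-fold and 1.5-fold. Of the pathway lists, the 2 lowest and the 2 highest H3K27ac ratios of each comparison were named, and all 10 members were described. Motifs were searched on both strands in the genome sequence within 100 bp of summits and in promoters, and the RefSeq promoter table, which is of another build, was not used. Samples were grouped by the labels. The members and gene lists were chosen with earlier results of these data known. Alternatives covered the window, the score minimum, list size, thresholds, centring and joined regions. Scripts ran in Python 3.11.15 with numpy 2.4.6, pandas 2.3.3, pysam 0.24.0 and matplotlib 3.10.9, and were tested on simulated lists with known differences. The 7 inputs were not analysed here, and the samples hold PRRX1 ChIP-seq of WT cells alone. The promoter sequence of 1 member is not reported here.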

Additional observations from a re-analysis of the deposited data

Results flagged for a closer look

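At 2 members the H3K27ac ratio of SG over WT was past 2-fold in one fibroblast type and on the other side of 0 in another. With 1 list per group, neither difference between types was tested.

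For Yap1 the centred log2 ratio was −1.64 in MEFs, −3.42 in MMTV-CAFs and 0.52 in wound fibroblasts. The MMTV-CAF value lies in the stretch of chromosome 9 where that WT line had 136 H3K27ac summits and its SG line 23. There 14 of 14 other genes with a summit were also called lower (6.46% of all genes). Their windows can overlap, and the stretch was chosen by PRRX1 summits of that WT line. In MEFs the same stretch held 26 summits in WT and 13 in SG, of which the Yap1 window itself held 13 and 3. The sum within 1 kb of the Yap1 TSS was 79.7 in WT and 97.0 in SG.

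For Ankrd1 the ratio was 0.12 in MEFs, −1.46 in MMTV-CAFs and −0.49 in wound fibroblasts. With 11 kb instead of 10 kb on each side, which takes in the strong upstream summit of MMTV-CAF SG, the MMTV-CAF ratio was −0.67. The MEF ratio, whose SG summit lay beyond the edge in the same way, was then 0.65, and the wound ratio stayed at −0.49.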

How the results depend on the processing

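No paired analysis was possible because each group had 1 list, and for the same reason no replicate could be left out. Of the values that answer a comparison, 139 kept their count within 1.5 times under an alternative and 31 moved. Of the other values, such as ratios of single members, 527 stayed the same, 41 moved and 2 changed direction. All counts below are of members. The share of all genes can change with the setting too and is not given beside them here. The counts therefore show how the main counts move and are not to be set against the shares given above. With no centring, MEF KI had 7 lower and 0 higher in H3K27ac, with Cyr61 at −0.055 and Ankrd1 at −0.40, and wound SG had 0 lower and 2 higher. With the gene body alone, MEF KI had 2 lower and 0 higher. With 50 kb on each side, MEF KI had 1 lower and 1 higher, MMTV-CAF SG 1 and 1, and wound SG 0 lower. With summits of at least 10 on the −log10 p scale, MEF KI had 2 lower and wound SG 2. With lists of equal size, MMTV-CAF SG had 1 higher. With 1.5-fold calls, MEF KI had 1 lower, MMTV-CAF SG 1 higher and wound SG 3 lower. Without Yap1, MEF SG had 0 lower and MMTV-CAF SG 1, and with 11 kb on each side MMTV-CAF SG had 1, both added after seeing the data. For H3K4me3, joining regions within 1 kb gave 4 lower in MMTV-CAF SG and 1 higher in wound SG, and MEF KI had 0 lower with 2-fold calls, 2 with no centring and 0 with regions within 500 bp of a TSS, the last added after seeing the data. Members over 4 kb in MEF KI were 3 by the widest 5% of the list, 2 with joined regions and 2 within 500 bp. PRRX1 summits were at 1 member in MEF WT with scores of at least 5 and at 1 without Yap1, and at 4 in MMTV-CAF WT in the gene body alone. The cause of these changes was not tested, except that wider or narrower windows, removed summits and other thresholds change what is counted. Sums of summit scores grow with depth and with how finely a broad peak is split into summits, and 1 list per group cannot tell a difference between genotypes from one between libraries.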
